A study of Mus musculus with 12 samples.

Results

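Interleukins are the secreted messengers through which leukocytes instruct one another, and each acts through a receptor of dedicated and shared chains. This account covers the 52 interleukin and interleukin receptor genes among the 770 genes of a mouse immune panel. They are all symbols that begin with Il and a digit, except the receptor chains Il2ra, Il2rb, Il2rg, Il4ra, Il7r and Il21r and the ligand Il34. The rule uses the gene names and no measured value, though the members were chosen with earlier results of these data known. NanoString counting, in which colour-coded probes are counted on single RNA molecules without amplification, was applied to total RNA of cells taken from lung tumours of KrasTrp53 mice, a genetically engineered model on a mixed background. The 6 groups were macrophages under JQ1, ricolinostat or vehicle and T cells under JQ1, ricolinostat or vehicle, with 2 libraries each, 12 in all. JQ1 blocks the acetyl-lysine pockets of BET bromodomain proteins, and ricolinostat inhibits histone deacetylases with preference for the cytoplasmic enzyme HDAC6. All groups, vehicle included, carried the tumour model and differed by cell type and agent. The Cre driver, dose, duration and ages are not given in the sources used here. Since no label ties the 2 libraries of a group to separate animals, p-values here refer to library-to-library spread, which may be technical.

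Both labels were checked against marker genes. The 13 T cell markers summed to 183 and 184 in the JQ1 T cell libraries, to 3114 and 3405 under ricolinostat and to 5075 and 5274 under vehicle, with 2 and 4, 13 and 13, and 13 and 13 of them above a signal of 20. Cd3e, Cd3g and Cd247, which encode chains of the T cell receptor complex, were at or below 20 in both JQ1 T cell libraries, so these libraries did not show the defining transcripts of their label. The 11 measured macrophage markers were above 20 in all 12 libraries. They summed to between 1138450 and 1295050 in macrophages and between 817450 and 1376740 in the T cell libraries, so the ranges overlapped. Lyz2 and Chil3 made up most of each sum. Taken singly, each marker overlapped between the fractions except Mrc1, at most 21205 in T cell libraries and at least 23836 in macrophages. The 4 epithelial markers summed to 82361 and 76913 in JQ1 T cells, 52765 and 13250 in ricolinostat T cells, 16444 and 20894 in vehicle T cells, and 2738 to 5331 in macrophages. Depth above background was about 1450000 to 2080000 counts per T cell library and 774000 to 1540000 per macrophage library, and a signal of 20 stood for 2.7 to 14 counts. Both libraries of ricolinostat replicate 2 stood apart from all others, so counts of called members, and of members whose groups did not overlap, are given with all libraries and also without these 2.

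Several families run through the set. The interleukin-1 family holds the alarm cytokines Il1a, Il1b and Il18, the antagonist Il1rn, and receptors that signal through MyD88. Interleukin-6, interleukin-12 and interleukin-23 share receptor chains and signal through JAK kinases and STAT factors. In lung tumours, macrophages are known as makers of interleukin-1 and interleukin-6 cytokines, while interleukin-17 comes mainly from T cells of the gamma delta and helper kind that carry the interleukin-23 receptor, and ST2, encoded by Il1rl1, marks regulatory and type 2 lymphocytes and mast cells.

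Signal was read from 44 of the 52 genes, in the sense of exceeding 20 in at least 1 library. There were 20 above 20 in all 12 libraries, 24 in 1 to 11 of them and 8 in none. The 8 were Il2, Il4, Il9, Il13, Il17f, Il22 and Il25, known mostly as products of helper T cells and related lymphocytes, and Il1rapl2, a receptor relative best known from neurons. For these 8 no difference could be measured at this depth. Il11, a relative of interleukin-6, exceeded 20 in 1 library only, macrophages under vehicle replicate 2, at 33.2.

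Among the interleukin-1 family ligands, Il18, which licenses interferon-gamma production, had a lowest signal of 13590.0, a median of 23588 and a highest of 30299 over the 10 libraries other than ricolinostat replicate 2. Over the same libraries Il1b, the secreted alarm cytokine, ran from 2837 to 6321 with a median of 4300.0. Il1rn, the receptor antagonist, ran from 3358 to 9364 with a median of 5099.6. Il1a, the cell-associated ligand, ran from 1724 to 3324. All 4 ligands were thus read far above the limit in both fractions under every treatment.

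Receptors of the interleukin-1 family covered a wider range between libraries. Il1rap, the shared accessory chain, stayed between 816 and 1139 in the 10 libraries. Il1rl2, the interleukin-36 receptor, stayed between 519 and 1049, and the decoy receptor Il1r2 between 222 and 838. By contrast Il18r1, the ligand-binding chain for interleukin-18, lay between 2.9 and 1738, and Il1rl1 between 1.0 and 125.

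Cytokines of the interleukin-6 and interleukin-12 group were mostly near the detection limit. Il6 itself was the exception, above 20 in all 12 libraries, with a lowest, median and highest of 57.1, 112 and 191 over the 10. Il12a and Il23a, the private subunits of interleukin-12 and interleukin-23, each exceeded 20 in 4 libraries, and Il27 exceeded it in 3, all of macrophages. Of the 6 receptor chains of the group 3 were above 20 in all 12 libraries, with Il6ra between 1245 and 2101, Il12rb2 between 312 and 884, and Il6st, the shared chain gp130, between 43.3 and 699 over the 10. The other 3 were near the limit, and Il12rb1, the chain shared by the interleukin-12 and interleukin-23 receptors, exceeded 20 in 2 libraries, Il11ra1 in 4 and Il23r in 6.

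Elsewhere receptors were again seen more often than ligands. Il10ra, Il17ra, Il13ra1 and Il13ra2, Il15ra and Il3ra exceeded 20 in all 12 libraries. Of the cytokines of these families only Il15, which supports T and natural killer cells, did so, together with Il16, a chemoattractant for CD4+ cells outside the named families. Il10, the anti-inflammatory cytokine, exceeded 20 in 6 libraries and reached at most 38.5. Probe signals of different genes are not on one scale, so these levels give no order between genes. The plot of all signals shows these levels gene by gene.

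**Figure D1:**
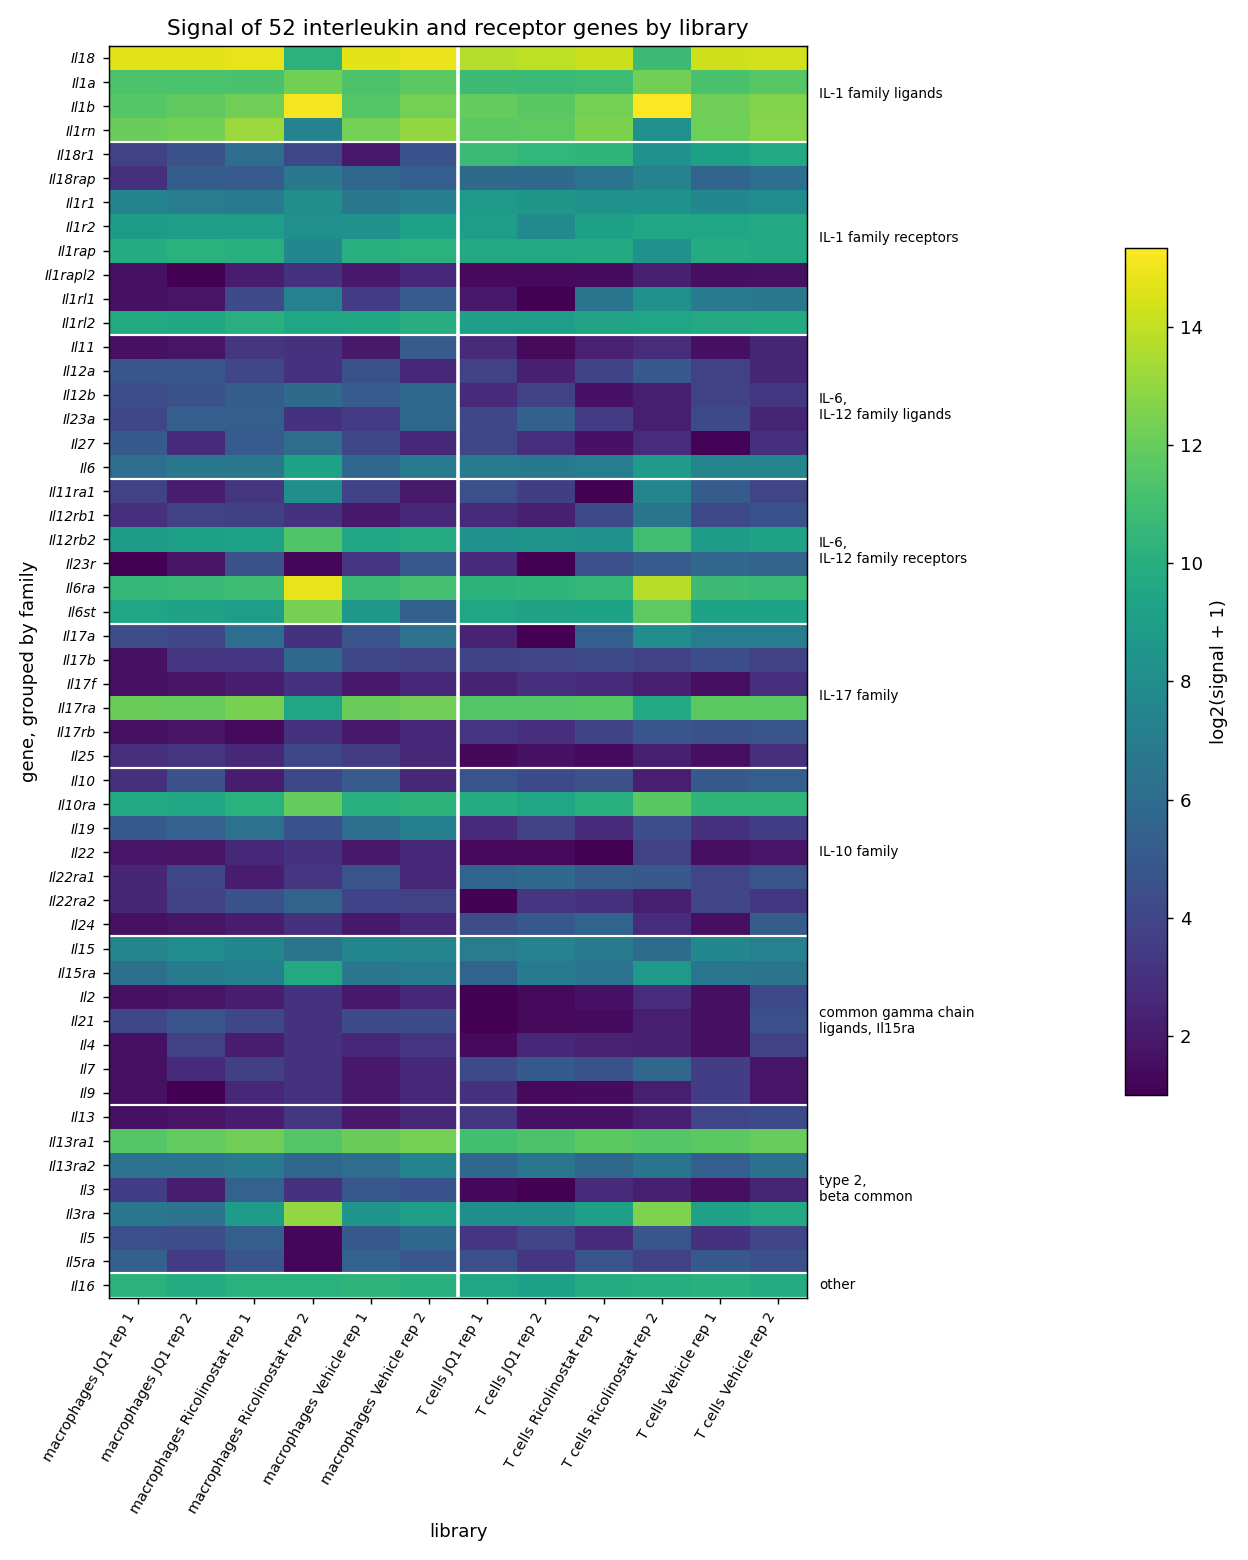
Signal of the 52 genes in each library, as log2(signal + 1) by colour, with genes down the page in families and libraries across, macrophages left of T cells and JQ1, ricolinostat and vehicle in that order. The 20 genes above 20 in all 12 libraries form continuous bands, and the columns of ricolinostat replicate 2 break many of them in both cell types, for example at Il18, Il1b, Il1rn and Il6ra.

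In T cells under JQ1, the clearest losses were of Il1rl1, Il17a and Il23r, receptors and product of specialised lymphocyte subsets, all of which dropped to the detection limit. The question is how the bromodomain inhibitor changes cytokine programmes in the tumour T cell fraction. Il1rl1, the receptor for interleukin-33, had signals of 2.99 and 1.0 in JQ1 T cells, 93.6 and 291 under ricolinostat and 125 and 104 under vehicle. Il17a, the neutrophil-recruiting cytokine, had 4.42 and 1.0 in JQ1 T cells, 38.5 and 255 under ricolinostat and 126 and 136 under vehicle. Il23r, the receptor chain that sustains interleukin-17 producing cells, had 5.84 and 1.0 in JQ1 T cells, 21.2 and 34.8 under ricolinostat and 52.1 and 46.95 under vehicle. For all 3 genes both JQ1 libraries were below 20 and every other T cell library was above it. In such bulk samples fewer cells of a type and less RNA per cell cannot be told apart.

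Because no JQ1 library exceeded 20, the sizes are bounds. Il1rl1 was at least 5.47-fold lower in JQ1 than in vehicle T cells, Il17a at least 6.29-fold and Il23r at least 2.403-fold. The fitted log2 differences, which depend on the pseudocount of 1, were -5.35 (SE 0.74, n = 2 each, limma adjusted p = 0.0153) for Il1rl1, -5.33 (SE 1.02, limma adjusted p = 0.0405) for Il17a and -3.77 (SE 0.73, limma adjusted p = 0.0430) for Il23r. These 3 were the only calls among the 33 members that passed the filter on low signals, against 5.56% of the 630 genes tested on the panel, and none was higher. All 3 calls were lost with a pseudocount of 20, with quantile normalization and when any 1 of the 2 JQ1 or 2 vehicle libraries was left out, which leaves a lone library in its group, and with each library centred on its median only Il1rl1 was called. The 13 T cell markers moved with these genes, at sums of 183 and 184 in JQ1 T cells against 5075 and 5274 in vehicle T cells, and the epithelial markers moved the other way, at 82361 and 76913 against 16444 and 20894, and their part in the result was not tested.

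Without ricolinostat replicate 2, 5 of 32 tested members were lower under JQ1, against a background of 16.3% of 624 genes. Il17rb, which pairs with Il17ra to bind interleukin-25, then joined with a log2 difference of -1.52 (SE 0.19, limma adjusted p = 0.0246). Its signals were 8.7 and 6.93 in JQ1 T cells and 22.8 and 25.8 in vehicle T cells, which do not overlap but lie close to 20, and quantile normalization turned its difference to 0.57. Il3ra, the interleukin-3 binding chain, joined with -1.27 (SE 0.22, limma adjusted p = 0.0417). It had 281 and 284 in JQ1 T cells against 584 and 796 in vehicle T cells, all far above the detection limit, so this was a partial reduction of an abundant transcript. With all libraries in the fit their adjusted p values were 0.261 and 0.900 in limma.

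The promoters of the 3 called genes are shown because these are the members that moved together, and each runs from 250 bases before to 50 after the annotated start, 5′ to 3′ on the gene's strand, from RefSeq on GRCm38.p6. Il1rl1 has 2 listed starts, at chr1:40429320-40429619 and chr1:40439379-40439678, both on the plus strand. Il17a lies at chr1:20730655-20730954 on the plus strand and Il23r at chr6:67491806-67492105 on the minus strand. Capitals mark matches on either strand to AGGTCA, the half-site of nuclear receptors such as the interleukin-17 regulator ROR gamma t, to GATAA, read by GATA factors, and to TGANTCA, the AP-1 site.
Il1rl1 start 1: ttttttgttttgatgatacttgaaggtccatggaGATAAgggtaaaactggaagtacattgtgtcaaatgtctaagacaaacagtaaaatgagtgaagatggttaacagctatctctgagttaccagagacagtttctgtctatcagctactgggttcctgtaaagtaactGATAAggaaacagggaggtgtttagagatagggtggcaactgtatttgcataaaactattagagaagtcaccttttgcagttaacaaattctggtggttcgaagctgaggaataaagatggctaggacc
Il1rl1 start 2: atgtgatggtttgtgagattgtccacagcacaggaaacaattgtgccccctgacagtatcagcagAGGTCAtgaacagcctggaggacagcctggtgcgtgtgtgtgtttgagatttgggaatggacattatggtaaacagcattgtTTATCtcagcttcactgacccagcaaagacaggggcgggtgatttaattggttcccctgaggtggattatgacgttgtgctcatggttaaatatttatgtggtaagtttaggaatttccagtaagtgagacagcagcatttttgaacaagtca
Il17a: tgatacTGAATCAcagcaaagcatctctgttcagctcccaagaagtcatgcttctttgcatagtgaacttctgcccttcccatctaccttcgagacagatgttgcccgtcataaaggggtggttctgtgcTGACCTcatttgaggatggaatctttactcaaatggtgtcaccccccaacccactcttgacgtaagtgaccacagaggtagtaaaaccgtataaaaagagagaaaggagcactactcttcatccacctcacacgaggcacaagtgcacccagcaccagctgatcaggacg
Il23r: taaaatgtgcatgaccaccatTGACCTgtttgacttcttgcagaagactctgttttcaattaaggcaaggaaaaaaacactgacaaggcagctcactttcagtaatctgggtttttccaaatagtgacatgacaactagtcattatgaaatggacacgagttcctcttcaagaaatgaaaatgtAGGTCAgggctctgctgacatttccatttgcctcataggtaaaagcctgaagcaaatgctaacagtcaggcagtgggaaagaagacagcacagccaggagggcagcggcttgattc

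In these windows AGGTCA matched at 1 position near the second Il1rl1 start and near Il17a, and at 2 positions near Il23r, while 16.3% of 32851 mouse promoters of the same length hold a match. GATAA was found at both Il1rl1 starts, in 2 copies at start 1, and 25.4% of promoters hold it. TGANTCA was found near Il17a, and 7.81% of promoters hold it. No TTCNNNGAA, the STAT consensus that 8.3% of promoters hold, lies in the 4 windows. The motifs do not overlap one another here, and each match is a description of letters only.

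Most other members of the set were lower under JQ1 than under vehicle without passing the test. Groups did not overlap for 21 of the 33 tested members on the lower side, against 54.6% of all genes tested, and for 4 on the higher side, against 13.2%. Leaving out ricolinostat replicate 2, which here only changes which genes are tested, gave 20 of 32 against 54.8% and 4 against 13.3%. The median log2 difference was -0.63 over the tested members and -0.38 over all tested genes, so the whole panel was shifted. With each library centred on its median the members' value was -0.32 and that of all genes -0.06. By role the medians were -0.64 for the 4 interleukin-1 family ligands, -0.07 for the 7 tested receptors of that family and -1.52 for the 3 tested interleukin-17 family genes. Only the interleukin-10 family had a positive median, 0.31 over its 4 tested genes.

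The 4 members on the higher side were Il18r1, Il1r1, Il22ra1 and Il7. Il18r1 had 1738 and 1436 in JQ1 T cells, 1329 and 309 under ricolinostat and 561 and 800.3 under vehicle. Il1r1, the signalling receptor for interleukin-1, had 436 and 386, against 207 and 250.1 under vehicle. Il22ra1, the epithelial chain of the interleukin-22 receptor, had 48.6 and 59.5, against 14.9 and 25.8 under vehicle. None of the 4 passed the test, at limma adjusted p of 0.713, 0.601, 0.296 and 0.382 with all libraries and 0.0542, 0.0616, 0.0666 and 0.148 without ricolinostat replicate 2. Il7, the homeostatic lymphocyte cytokine of stromal and epithelial cells, had 17.2 and 31.7 in JQ1 T cells against 11.03 and 2.51 under vehicle.

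**Figure D2:**
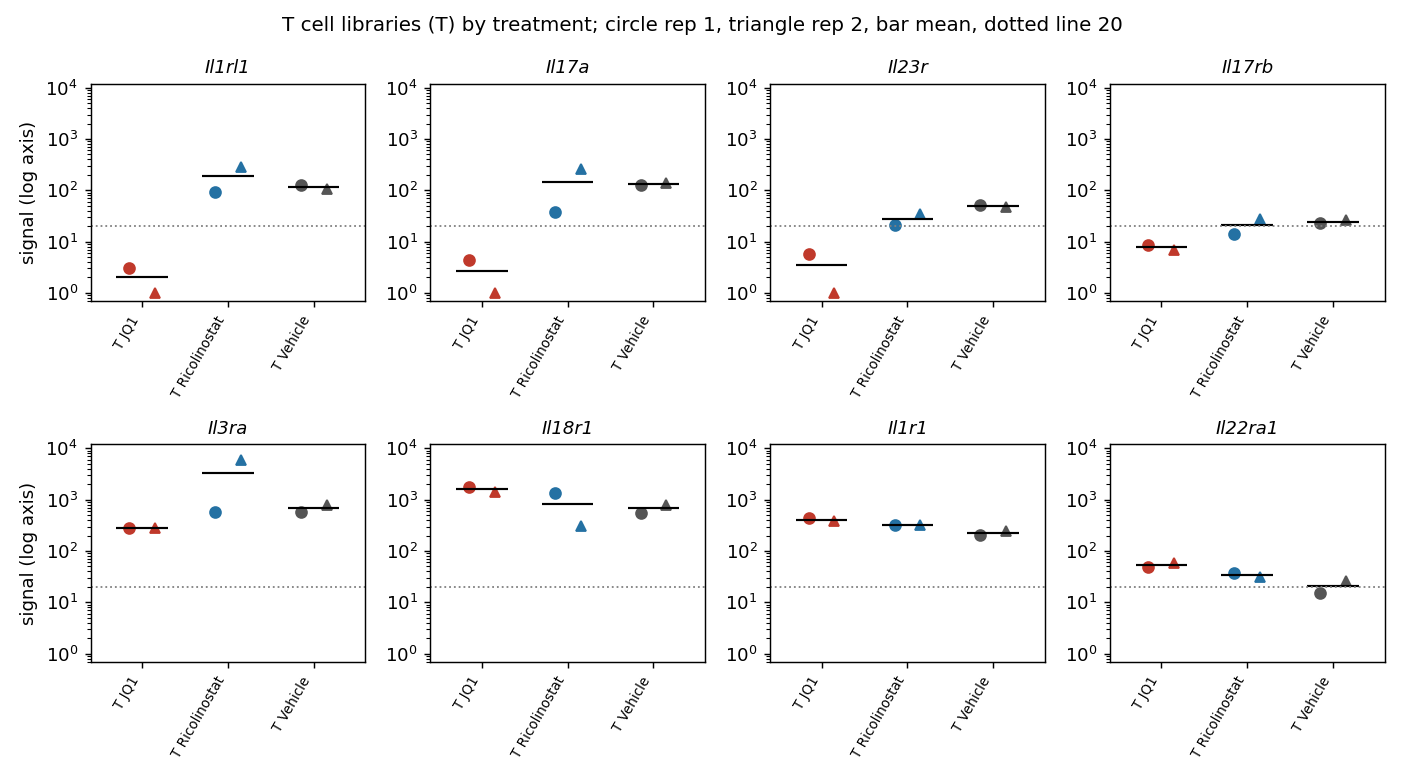
Signal on a log axis for 8 interleukin genes in the T cell libraries under JQ1, ricolinostat and vehicle, with a circle for replicate 1, a triangle for replicate 2, a bar at the mean and a dotted line at 20. Il1rl1, Il17a and Il23r lie under the line in both JQ1 libraries and over it in the other 4, whereas Il18r1, Il1r1 and Il22ra1 sit higher under JQ1 than under vehicle.

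Genes downstream of the receptors gave no call. Of the 12 measured genes of the JAK and STAT branch, the 12 of the MyD88 branch and the 5 partner chains and related ligands, 0 passed in JQ1 against vehicle T cells by limma, with or without ricolinostat replicate 2. Their median log2 differences were -0.45, -0.26 and -0.35, near the -0.38 of all genes. Single genes departed from these medians without passing. Stat4 had 10.1 and 1.55 in JQ1 T cells against 56.0 and 85.0 in vehicle T cells. Sigirr stood on the other side, at 221 and 193 against 162 and 138. Il2rb, which is not in the set, is the chain through which Il15 and Il15ra act, and it had 2.99 and 1.55 in JQ1 T cells against 543 and 758 in vehicle T cells, at least 30.6-fold lower, while Il15ra, which presents interleukin-15, had 48.6 and 112 against 97.1 and 89.3 and overlapped.

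Ricolinostat gave no call among the members in T cells. With all libraries limma called 0 of 33 tested members and 0% of 630 genes, with 1 member at an unadjusted p under 0.05, and without ricolinostat replicate 2 it called 0 of 32 and 0%, with 3 members at an unadjusted p under 0.05. The 4 members with both ricolinostat libraries above both vehicle libraries were Il7, Il1r1, Il18rap and Il22ra1, against 9.52% of all genes, and 8 had both below, against 28.7%. With replicate 1 as the only ricolinostat library, 6 of 32 stood above both vehicle libraries, against 19.6%, and 20 below both, against 59.6%. A lone library stands clear of the vehicle libraries more easily than 2 do, so this rise does not show a dependence on the library used. Il7 had 22.9 and 52.8 in ricolinostat T cells and 11.03 and 2.51 in vehicle T cells. Il18rap, the accessory chain of the interleukin-18 receptor, had 90.2 and 165 in ricolinostat T cells and 50.2 and 74.5 in vehicle T cells. In both genes the 2 ricolinostat libraries differed from each other by more than the gap that separated the groups.

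Set directly against JQ1, ricolinostat T cells had more Il1rl1, the only member called between the drugs. The signals of 93.6 and 291 under ricolinostat against 2.99 and 1.0 under JQ1 amount to an at least 7.91-fold higher level (fitted log2 difference 5.88, SE 0.74, limma adjusted p = 0.0225). This was 1 of 33 tested members, against 3.02% of all genes tested. Without ricolinostat replicate 2 the call held at a log2 difference of 5.07 (limma adjusted p = 0.0315), 1 of 32 against 4.17%, and it was lost with a pseudocount of 20, with quantile normalization or when 1 JQ1 or vehicle library was left out. Il17a and Il23r, with 38.5 and 255 and 21.2 and 34.8 under ricolinostat, also stood above both JQ1 libraries but did not pass. Counting every tested member, 16 of the 33 were higher under ricolinostat without overlap, against 33.7% of genes, and 4 were lower, against 11.6%. With replicate 1 as the only ricolinostat library these were 20 of 32 against 49.7% and 6 against 26.3%. T cell marker sums moved with these genes, at 3114 and 3405 under ricolinostat against 183 and 184 under JQ1, and their part in the result was not tested.

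In macrophages no member was called for either drug. For JQ1 against vehicle, limma called 0 of 35 tested members and 0% of 564 genes with 0 members at an unadjusted p under 0.05, and without ricolinostat replicate 2 it called 0 of 33 and 0% of 550 genes with 6 members at that level. Il3ra had 104 and 87.6 in JQ1 macrophages and 353 and 506 in vehicle macrophages, without overlap and on the same side as in T cells. Its log2 difference without ricolinostat replicate 2 was -2.13 (95% interval -2.92 to -1.35, limma adjusted p = 0.232). Il19, an interleukin-10 relative, had 32.3 and 44.3 and Il12b, the p40 subunit of interleukin-12 and interleukin-23, had 19.6 and 22.6 in JQ1 macrophages, against 71.6 and 144 and 33.95 and 53.4 in vehicle macrophages. On the lower side 17 of the 35 members did not overlap, against 41% of all genes, and on the higher side 2, Il6st and Il12a, against 10.6%. Without ricolinostat replicate 2 these were 15 of 33 against 41.5% and 2 against 10%.

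The higher Il6st under JQ1 rested on vehicle macrophages that differed from each other. It had 699 and 617 in JQ1 macrophages and 396 and 43.3 in vehicle macrophages, and the second vehicle library alone was far under the others. The 3 genes called in T cells were near the limit here. Il1rl1 had 2.12 and 2.41 in JQ1 macrophages and 10.8 and 33.2 in vehicle macrophages, Il17a 19.6 and 15.4 against 25.3 and 83.6, and Il23r 1.0 and 2.41 against 7.86 and 28.2. All 3 stood lower in both JQ1 libraries without passing.

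The difference between the JQ1 effects in the 2 cell types was tested directly. Limma called 0 of 43 tested members, against 0.91% of 659 genes, with 2 members at an unadjusted p under 0.05, and without ricolinostat replicate 2 it called 0 of 40, against 5.55%, with 3 at that level. For Il17a the macrophage effect minus the T cell effect was 3.97 on the log2 scale (95% interval 0.12 to 7.82, limma adjusted p = 0.516). For Il1rl1 it was 2.72 (-0.53 to 5.98, limma adjusted p = 0.768) and for Il23r 1.15 (-2.41 to 4.71, limma adjusted p = 1.0), which quantile normalization turned to -0.15. The calls in T cells are therefore not shown to be particular to that fraction. For ricolinostat limma called 0 of 43 members and 0% of genes, with 0 members at an unadjusted p under 0.05, and 0 of 40 and 0% without replicate 2, with 1 member at that level.

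Ricolinostat against vehicle in macrophages likewise gave 0 calls among 35 members by limma and 0% of genes, with 0 members at an unadjusted p under 0.05, and 0 of 33 and 0% without replicate 2, with 0 at that level. Ricolinostat against JQ1 gave 0 of 35 and 0% of genes, with 3 members at an unadjusted p under 0.05, and 0 of 33 and 0% without replicate 2, again with 3. Il27, a subunit of an interleukin-12 relative made by myeloid cells, had 33.2 and 68.0 in ricolinostat macrophages, 32.3 and 5.82 under JQ1 and 16.6 and 5.03 under vehicle. Il15ra had 146 and 838 in ricolinostat macrophages, 76.7 and 114 under JQ1 and 101 and 124 under vehicle. In both genes the 2 ricolinostat libraries stood above the other 4, and the first library stood above them by little.

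The 2 ricolinostat replicates differed widely from each other. Over 43 members the log2 difference between the replicates had an SD of 2.56 in macrophages and 2.04 in T cells under ricolinostat, against 0.81 to 1.19 in the other 4 groups. Il1b had 4848 and 35456 in the ricolinostat macrophages and 5126 and 41175 in the ricolinostat T cells, replicate 1 first. Il6ra had 1899 and 28257 and 1480.3 and 14194 in the same order, and Il3ra 462 and 8386 and 573 and 6040.2. In each case replicate 2 was the high one in both fractions.

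Other members went the opposite way in replicate 2. Il18 had 30100.2 and 1201 in ricolinostat macrophages and 18501 and 1834 in ricolinostat T cells. Il1rn had 9364 and 164 and 5818 and 291, so the antagonist was scarce in the libraries where Il1b was most abundant. Of 29 members above 20 in a ricolinostat library of both cell types, 21 (72.4%) differed in the same direction in both, against 86.1% of 555 genes. There were 10 members (34.5%) past 4-fold in the same direction in both, against 34.6% of the 555 genes. Past it in opposite directions were 2, Il17a and Il5, against 4 of the 555 genes. Il5 rested on low signals, 40.2 and 1.34 in ricolinostat macrophages and 5.68 and 27.6 in ricolinostat T cells. Of the 10 members past 4-fold in the same direction, Il11ra1, Il12rb2, Il15ra, Il1b, Il3ra, Il6ra and Il6st were higher in replicate 2, and Il18, Il18r1 and Il1rn were lower. The housekeeping genes departed too, with an SD of 2.66 in macrophages and 2.10 in T cells against 0.12 to 0.20 in the other groups.

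When replicate 2 alone stood for ricolinostat, limma called 18 of 33 tested members (54.5%) in macrophages, against 65.8% of all genes, and 18 of 33 (54.5%) in T cells, against 60.1%. When replicate 1 alone did so it called 0 members and 0% of genes in both, with 0 members in macrophages and 3 in T cells at an unadjusted p under 0.05. In each of these fits ricolinostat had a lone library, which was assumed to vary like the other groups. The shares of members lie under those of the panel, and the calls describe that 1 library.

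**Figure D3:**
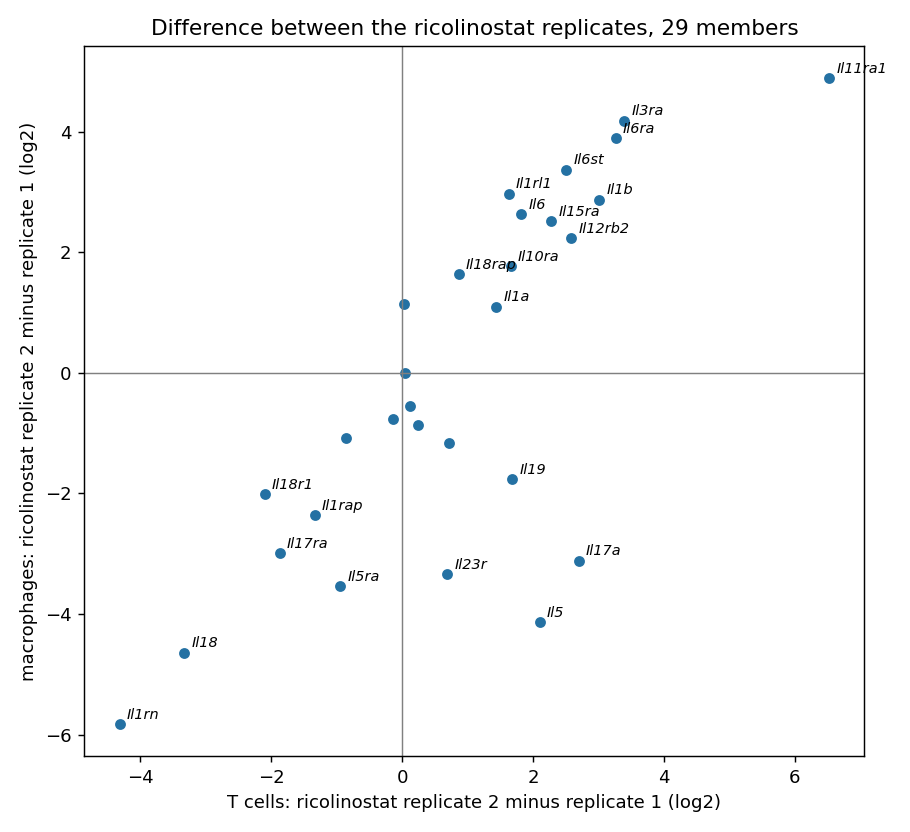
Log2 difference of ricolinostat replicate 2 minus replicate 1 for 29 members, with T cells on the x axis and macrophages on the y axis, both as log2(signal + 1) differences. Of the 29 points 21 have the same sign on both axes, from Il1rn at -4.32 and -5.82 to Il11ra1 at 6.52 and 4.89, while 8 differ in opposite directions, among them Il17a, Il5, Il19 and Il23r, which were lower in macrophages and higher in T cells.

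Between the fractions, Il18r1 was higher in the libraries labelled T cells, and Il12b and Il19 were higher in those labelled macrophages. Il18r1 had 13.2 and 22.6 in JQ1 macrophages, 68.3 and 16.1 in ricolinostat macrophages and 2.9 and 23.2 in vehicle macrophages. In T cells it had 1738 and 1436 under JQ1, 1329 and 309 under ricolinostat and 561 and 800.3 under vehicle. Every macrophage library was below every T cell library. Averaged over the 3 treatments the log2 difference, macrophages minus T cells, was -5.59 (SE 0.61, n = 6 each, limma adjusted p = 0.000273), a 48.03-fold lower fitted level in macrophages. Only 3 macrophage libraries exceeded 20 for Il18r1, so the size of this fold rests partly on low signals. Over 18 settings the log2 difference ran from -6.02 to -4.47. Il18r1 was thereby at its highest in the JQ1 T cell libraries, which had the lowest T cell marker sums, 183 and 184, and the highest epithelial sums, and the part of either in the result was not tested.

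Il12b had 19.6 and 22.6 in JQ1 macrophages, 36.7 and 60.6 under ricolinostat and 33.95 and 53.4 under vehicle. In T cells its signals were 5.84 and 13.1 under JQ1, 2.23 and 3.6 under ricolinostat and 12.99 and 8.86 under vehicle, none above 20. Il12b was higher in macrophages by 2.23 on the log2 scale (SE 0.32, limma adjusted p = 0.00145), at least 1.71-fold. Il19 had 32.3 and 44.3, 82.4 and 23.6 and 71.6 and 144 in macrophages under JQ1, ricolinostat and vehicle. The T cell libraries had 5.84 and 13.1, 5.68 and 20.4 and 7.11 and 10.98 in the same order. Its difference was 2.43 (SE 0.47, limma adjusted p = 0.00594), with no overlap between the 6 macrophage and 6 T cell libraries. Of the 43 tested members only these 3 did not overlap, 2 higher and 1 lower in macrophages, against 1.97% and 6.53% of all genes. In the 10 libraries without ricolinostat replicate 2, 9 of 40 did not overlap. The 6 higher in macrophages, against 12.2% of genes, were Il12b, Il17ra, Il18, Il19, Il1rap and Il5, and the 3 lower, against 12.9%, were Il17rb, Il18r1 and Il1r1.

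Over the 3 treatments 9 of 43 tested members passed, 4 higher and 5 lower in macrophages, against 18.8% of 659 genes, 2.12% higher and 16.7% lower. Beside Il12b and Il19, the higher ones were Il3, at 2.08 (limma adjusted p = 0.0157), and Il21, at 2.07 (limma adjusted p = 0.0211). Both are T cell cytokines by reputation. Il3, a growth factor for myeloid cells and basophils, had 11.1 and 3.41, 43.8 and 7.41 and 28.1 and 23.2 in macrophages and at most 5.68 in any T cell library. Il21, a helper cytokine for B cells, reached at most 25.1 in a macrophage library and 21.6 in a T cell library, so these 2 calls rest on low signals.

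On the lower side stood Il17rb at -1.99 (limma adjusted p = 0.00507), Il22ra1 at -1.87 (limma adjusted p = 0.0241), Il7 at -1.53 (limma adjusted p = 0.0414) and Il1r1 at -1.07 (limma adjusted p = 0.0361). Il1r1 was read above 20 in every library, with 169.8 and 128, 121 and 268 and 106 and 139 in macrophages under JQ1, ricolinostat and vehicle. In T cells it had 436 and 386, 319.6 and 327 and 207 and 250.1. The fractions overlapped for Il1r1 only through the second ricolinostat macrophage library. Il17rb and Il7 never exceeded 20 in macrophages, and each exceeded it in only 3 T cell libraries, so both differences lie between low signals. Over 18 settings Il17rb ran from -2.28 to -0.56 and lost its call in 2. Of the 12 fits that left out 1 library, Il1r1 lost its call in 10, Il7 in 8, Il22ra1 in 5, Il3 in 3 and Il21 in 3 of the 10 that tested it. Il1r1 and Il7 also lost it with centred libraries and with quantile normalization, where they stood at -0.33 and -0.42. The epithelial marker sums, 2738 to 5331 in macrophages against 13250 to 82361 in T cells, moved with these lower genes. Taken singly, Muc1 and Cxcl15 did not overlap between the fractions, whereas Epcam and Cdh1 did. The part of these markers in the result was not tested.

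**Figure D4:**
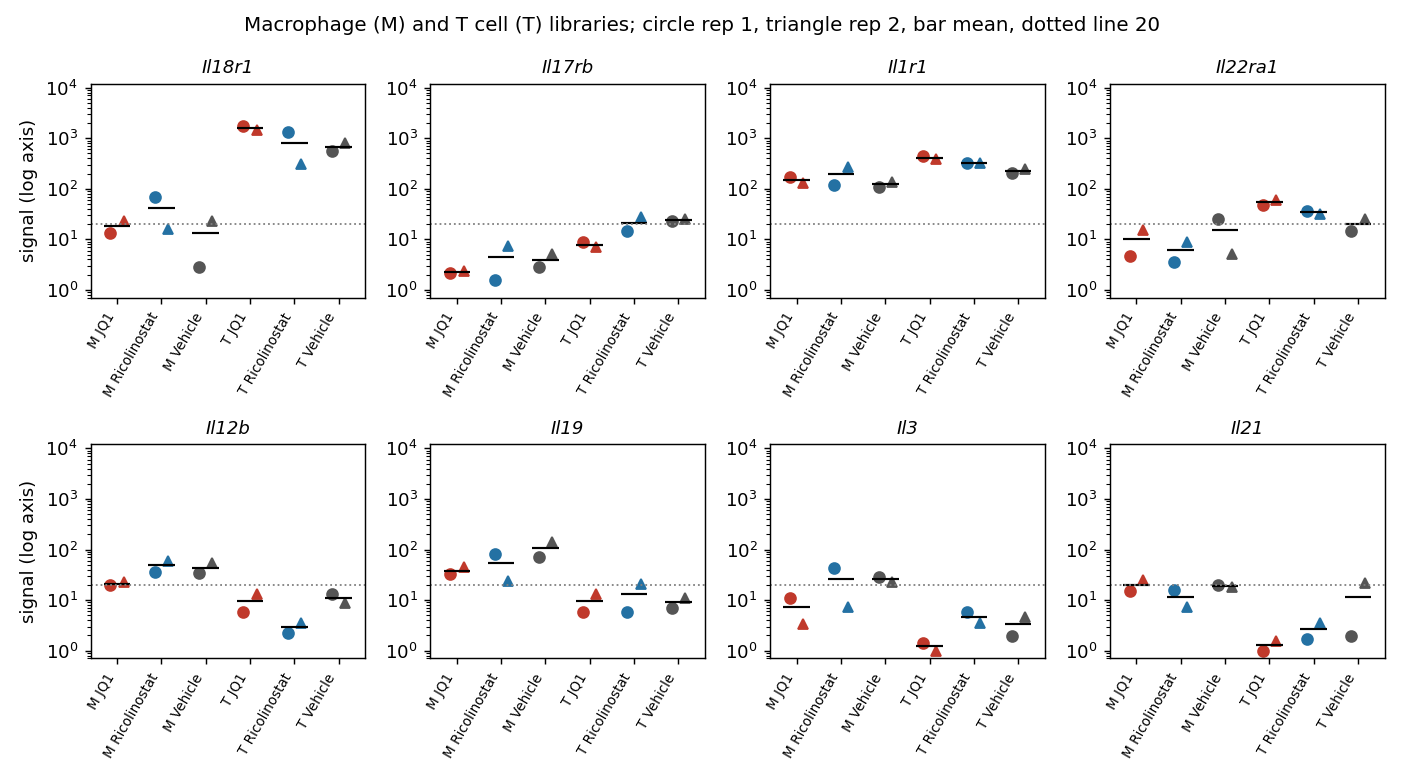
Signal on a log axis for 8 interleukin genes in macrophages (M) and T cells (T) under JQ1, ricolinostat and vehicle, with a circle for replicate 1, a triangle for replicate 2, a bar at the mean and a dotted line at 20. The upper row holds 4 genes that were lower in macrophages and the lower row 4 that were higher, and no macrophage library reaches a T cell library for Il18r1.

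Leaving out ricolinostat replicate 2 raised the count to 17 of 40 members, 10 higher and 7 lower in macrophages, against 44.1% of all genes. Of the 9 calls above 8 remained, and Il7 was lost at a limma adjusted p of 0.0907. Genes with strong signals and small differences then passed. Il18 was higher in macrophages by 0.67 on the log2 scale (SE 0.10, limma adjusted p = 0.00457), Il17ra, the shared interleukin-17 receptor chain, by 0.58 (limma adjusted p = 0.00620), and Il12rb2, the signalling interleukin-12 receptor chain, by 0.68 (limma adjusted p = 0.0147). With all other libraries kept, leaving out ricolinostat macrophage replicate 1 turned Il18 to -0.32 and Il17ra to -0.10, and leaving out ricolinostat T cell replicate 2 turned Il18 to -0.10. Il18 had between 25930.0 and 30299 in the 5 macrophage libraries and between 13590.0 and 21246 in the 5 T cell libraries.

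The other additions higher in macrophages were Il13ra1 at 0.49 (limma adjusted p = 0.0351), Il1rl2 at 0.43 (limma adjusted p = 0.0293) and Il5, the eosinophil cytokine, at 1.77 (limma adjusted p = 0.00723). Lower in macrophages were Il3ra at -0.85 (limma adjusted p = 0.0119), Il1rl1 at -1.51 (limma adjusted p = 0.0254) and Il24 at -2.52 (limma adjusted p = 0.0437). Il24, another interleukin-10 relative, exceeded 20 in 4 T cell libraries and in no macrophage library. With paired macrophage and T cell libraries as a block, 16 of 43 members (37.2%) passed in place of 9, against 42.5% of all genes in place of 18.8%.

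Within single treatments fewer members passed. Under vehicle 3 of 43 did, against 10.6% of genes, with Il18r1 at -6.11 (limma adjusted p = 0.00710), Il17rb at -2.38 (limma adjusted p = 0.0493) and Il19 at 3.38 (limma adjusted p = 0.0304, at least 4.89-fold higher in macrophages). Il17rb rested on low signals, 22.8 and 25.8 in T cells against 2.9 and 5.03 in macrophages, and lost this call in 12 of 18 settings. The block, which called 16.1% of genes, kept Il18r1 and Il17rb, added Il12b at a limma adjusted p of 0.0387 and lost Il19 at 0.0670. Under JQ1 1 of 43 passed, against 5.46%, which was Il18r1 at -6.43 (limma adjusted p = 0.00673), and the block gave 3, with Il17rb and Il3ra, against 11.5%. Under ricolinostat 1 of 43 passed, against 5.77%, which was Il12b at 3.64 (limma adjusted p = 0.00943), at least 2.295-fold higher in macrophages, and the block gave 3, with Il17rb and Il18r1, against 7.13%.

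Without ricolinostat replicate 2 the single treatments gave 8, 7 and 3 of 40 members under vehicle, JQ1 and ricolinostat, against 23.6%, 23.6% and 10% of genes. Under vehicle the additions were Il1rl1 at -2.52, Il1r1 at -0.90, Il12b at 1.89, Il3 at 2.7 and Il5 at 1.86, with limma adjusted p from 0.0212 to 0.0415. Under JQ1 they were Il1r1 at -1.47, Il3ra at -1.55, Il17ra at 0.54, Il18 at 0.84 and Il19 at 1.98, besides Il17rb, with limma adjusted p from 0.0112 to 0.0446. Under ricolinostat, where each fraction then had a lone library, Il17rb and Il19 joined Il12b, Il19 at 3.64. Il17rb was at or below 20 in both fractions under JQ1, so no difference is given there. The same holds for its lone ricolinostat libraries, at 14.3 in T cells and 1.57 in macrophages. Quantile normalization turned Il1r1 under vehicle to 0.0491.

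Stat4, which transmits interleukin-12 signals, Sigirr, a brake on interleukin-1 and interleukin-18 receptors, and Csf2, which encodes GM-CSF, were lower in macrophages over the 3 treatments. They were the only 3 called of the 29 measured partner genes (10.3%), against the 18.8% of all genes. Their log2 differences were -2.22, -2.02 and -1.92, at limma adjusted p of 0.00930, 0.0199 and 0.0288. None of the 29 was higher in macrophages with all libraries. Without ricolinostat replicate 2 Stat4 and Sigirr remained lower, Csf2 did not pass (limma adjusted p = 0.0595), and Lif, an interleukin-6 relative, was lower at -1.98 (limma adjusted p = 0.00690). Jak1, Stat5b, Irak1, Irak3, Casp1, Pycard and Csf2rb were then higher in macrophages, among them Casp1, the protease that matures Il1b and Il18, which made 10 of 29 called (34.5%) against 44.1% of all genes.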

How the data were processed

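The authors deposited 1 normalized signal per gene and library for 770 genes on a linear scale. The normalization method was not given in the sources used here. Within each library the low values were evenly spaced, all within 0.1 of a step once a shift of that library's own was taken off, and the step was taken as the signal of 1 count and gave the depth. Group differences on log2(signal + 1) were fitted by limma 3.58.1 (R 4.3.3), two-sided, with Benjamini-Hochberg adjustment over all tested genes at 0.05. Genes entered a test if 2 or more of its libraries exceeded 20, and 20 housekeeping genes were not tested, which left 750. Within a cell type the fit held its 6 libraries, and across cell types all 12. Fold changes are on the log2(signal + 1) scale, which understates changes of low genes. Where all libraries of a group were at or below 20, the fold is a bound against a signal of 20.

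Members and gene lists were chosen with earlier results of these data known. Differences are given for members called in either fit, and for others mostly their levels or adjusted p. Exceptions called in neither fit were Il3ra for JQ1 in macrophages, and Il17a, Il1rl1 and Il23r in the difference of JQ1 effects. Deviations of macrophage and T cell libraries of the same treatment and number correlated at 0.135 (vehicle), 0.250 (JQ1) and 0.790 (ricolinostat) over 659 genes, the last including the departure of replicate 2. No label ties these libraries to each other, so the pairs used in the block are an assumption. All 52 members matched RefSeq gene symbols and 40 had a promoter entry. Figures were drawn with matplotlib 3.10.9.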

Additional observations from a re-analysis of the deposited data

How the results depend on the processing

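With 2 libraries per group the counts of members called depended on the libraries used. Leaving out 1 library at a time gave 0 to 6 calls for JQ1 against vehicle, 0 to 18 for ricolinostat against vehicle and 0 to 23 for ricolinostat against JQ1 in T cells. In macrophages the same 3 comparisons gave 0 to 0, 0 to 18 and 0 to 17. Macrophages against T cells gave 0 to 5 under vehicle, 0 to 2 under JQ1, 0 to 3 under ricolinostat and 5 to 10 over the 3 treatments, where Il12b, Il17rb, Il18r1 and Il19 were called in all 12 fits, and both differences of drug effects gave 0 to 0. The highest counts of the ricolinostat comparisons came without replicate 1, where most genes of the panel were called as well. For JQ1 against vehicle in T cells the share of all genes rose together with the count of members, and it also varied between the fractions. These ranges are therefore not particular to the members. Other settings moved the 3 calls for JQ1 in T cells to 5 without both ricolinostat replicate 2 libraries, 0 with a pseudocount of 20, 1 with centred libraries and 0 with quantile normalization (16.3%, 1.27%, 4.13% and 1.27% of all genes), and the 1 call for ricolinostat against JQ1 to 0 with a pseudocount of 20 and 0 with quantile normalization (0% and 0.952%). Under vehicle the 3 calls for macrophages against T cells became 8 without both ricolinostat replicate 2 libraries and 5 with quantile normalization (23.6% and 9.26%). Under JQ1 1 became 7, 2 and, with the replicate block, 3, at 23.6%, 4.25% and 11.5% of all genes. Under ricolinostat 1 became 3 without both replicate 2 libraries, 2 with a pseudocount of 20 and 3 with the replicate block (10%, 5.46% and 7.13%). Over the 3 treatments 9 became 17, 5 with a pseudocount of 20 and 16 with the replicate block, which changed neither count of 0 for the drug effects. The shares of all genes there were 18.8%, 44.1%, 16.8% and 42.5%. Centring moved the median of all genes from 0.02 to 0.43 there. Member differences were followed over the settings whether or not they were called with all libraries. Those not called there could gain a call but not lose one. The lost calls below, set against all settings, therefore understate how often a call was lost. Of 766 settings over 45 member differences 620 kept direction and side, 92 lost a call, 48 gained one and 6 changed sign. These were Il17rb for JQ1 in T cells at 0.57, Il1r1 under vehicle at 0.0491 and Il23r in the difference of JQ1 effects at -0.15 with quantile normalization, and over the 3 treatments Il18 at -0.10 without ricolinostat T cell replicate 2 and at -0.32, with Il17ra at -0.10, without ricolinostat macrophage replicate 1. Over single libraries left out Il18 ran from -0.32 to 1.23 and Il17ra from -0.10 to 0.89. The cause was not tested. Signals near 20 rest on 2.7 to 14 counts.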

Other observations

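Several members are neighbours in the genome, and in the RefSeq order of GRCm38.p6 the 6 receptor genes Il1r2, Il1r1, Il1rl2, Il1rl1, Il18r1 and Il18rap follow one another on chromosome 1 with 0 protein-coding genes between them. Il1rl1 had 2.99 and 1.0 in JQ1 T cells against 125 and 104 in vehicle T cells, while its neighbour Il18r1 had 1738 and 1436 against 561 and 800.3 and Il18rap 60.03 and 61.1 against 50.2 and 74.5. On the other side Il1rl2 had 539 and 519 against 786 and 857, Il1r1 436 and 386 against 207 and 250.1 and Il1r2 518 and 222 against 676 and 838. Of the 6, Il1rl1 was called lower, Il18r1 and Il1r1 stood higher in both JQ1 libraries without passing, Il1rl2 and Il1r2 stood lower in both without passing, and Il18rap overlapped. Over all 630 genes tested, 5.56% were called, 54.6% stood lower in both JQ1 libraries than in both vehicle libraries and 13.2% stood higher. Differences between the 6 receptor genes were not tested.

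The pair Il12rb2 and Il23r lies together on chromosome 6. Il12rb2 had 312 and 341 in JQ1 T cells against 461 and 620.4 in vehicle T cells, and Il23r had 5.84 and 1.0 against 52.1 and 46.95. Il17a and Il17f are adjacent on chromosome 1, and Il17f stayed at or below 20 in all 12 libraries where Il17a reached 255.

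Il19 and Il24, separated on chromosome 1 by Il20 alone, were read in opposite fractions. Il19 exceeded 20 in 6 macrophage libraries and 1 T cell library, and Il24 in 0 macrophage libraries and 4 T cell libraries. The T cell libraries with Il24 above 20 were both JQ1 libraries, at 20.1 and 30.1, and 1 library each under ricolinostat and vehicle, which had 48.8 and 5.97 and 1.96 and 36.4.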
